A study of Mus musculus with 18 samples.

Results

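GC1spg cells exposed to busulfan (Bu) were compared with cells given its solvent DMSO, in both cases after transfection with an siRNA against GFP, a jellyfish protein that mouse cells lack, so that the siRNA served as the non-targeting control. The comparison held 4 siGFP Bu libraries and 5 siGFP DMSO libraries, 9 of the 18 RNA-seq libraries of the series, and took in all genes. The remaining 9 libraries, 4 siTGR5 Bu and 5 siTGR5 DMSO, came from cells transfected with an siRNA against TGR5, the bile acid receptor encoded by Gpbar1, and were used only to show where the Bu effect differed. The cells had been starved for 12 h before they received Bu at 200 µM, or DMSO, for 24 h. The sources give this scheme for a vehicle and a Bu group without naming an siRNA, and it is taken to hold for every group here. GC1spg is an immortalized mouse line derived from type B spermatogonia, so every library came from a single cell line, without Sertoli cells, Leydig cells or the germ cell stages around it in a testis.

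Busulfan is a bifunctional alkylating agent that links guanines within and between DNA strands, and it is used to empty the testis or the bone marrow of stem cells. Crosslinks stall replication forks and are removed by the Fanconi anemia and homologous recombination proteins, while the checkpoint kinases ATM and ATR signal to p53, which switches on genes that halt the cell cycle or start apoptosis. Bu is also conjugated to glutathione in cells, which ties its handling to the NRF2 pathway that supplies glutathione and other reducing enzymes.

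The libraries held 27387541 to 38587189 gene counts in siGFP Bu and 29451420 to 48432235 in siGFP DMSO. The labels do not say whether the libraries of a group stem from separate cultures. All p-values below therefore rest on the variation among these libraries, which may be technical. Transcripts of photoreceptor cells, which GC1spg cells should lack, summed to 58.4 and 40.7 CPM (a gene's counts scaled to a common library total) in siGFP Bu replicates 2 and 4, against 16.3 and 17.4 in the remaining siGFP Bu libraries, and to 79.0 and 122 CPM in siGFP DMSO replicates 1 and 5, against 16.3 to 17.2 in the remaining siGFP DMSO libraries. Both groups thus held 2 such libraries, and the counts over lists that moved by over 1.5 times without these 4 libraries are given below both ways. In the remaining siGFP libraries most of the sum was Rom1, which had at least 14.2 CPM in every siGFP library. A list of nuclear-retained noncoding RNAs and their hosts summed to 708 to 897 CPM in siGFP Bu and to 1166 to 1566 CPM in siGFP DMSO, with no overlap. Of this sum, Malat1 averaged 326 CPM in siGFP Bu and 713 CPM in siGFP DMSO, and Neat1 113 and 224 CPM. The part of the list in the other differences was not tested. Some markers of spermatogonia were expressed. In siGFP Bu and siGFP DMSO, Foxo1 averaged 50.5 and 46.0 CPM, Bcl6b 12.9 and 13.2 CPM, Lhx1 6.69 and 7.22 CPM, and Id4 5.31 and 5.24 CPM. Other markers were near absent. Pou5f1 had no count in any siGFP library, and Zbtb16, Nanos2, Dmrt1, Stra8, Kit and Ret did not pass 0.13 CPM in any siGFP library, Ddx4 not 0.06 CPM and Dazl not 0.03 CPM, whereas Gfra1 averaged 20.5 CPM in siGFP Bu and 28.5 CPM in siGFP DMSO. Gpbar1 was near the detection limit, with 8 to 17 counts in siGFP Bu and 13 to 40 counts in siGFP DMSO. It had 8 to 15 counts in siTGR5 Bu and 4 to 18 counts in siTGR5 DMSO. In CPM, siTGR5 Bu (0.29 to 0.40) lay within the range of siGFP Bu (0.21 to 0.62). The siTGR5 DMSO values (0.11 to 0.49) overlapped those of siGFP DMSO (0.44 to 0.86). These low counts do not show how far the siRNA lowered Gpbar1.

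Bu was followed by many small changes in both directions. Of 31643 genes in the table, 14304 passed the filter on low counts and were tested, and 4023 of them (28.1%) differed between siGFP Bu and siGFP DMSO at an adjusted p below 0.05 (edgeR quasi-likelihood test with Benjamini-Hochberg adjustment). The mRNA of 2043 genes (14.3%) rose and that of 1980 genes (13.8%) fell. The median log2 fold change was 0.22 among the genes that rose and -0.29 among those that fell, against 0.0031 over all tested genes. Genes that rose by more than 0.5 on the log2 scale numbered 233, against 486 that fell by more than 0.5, and the corresponding numbers beyond 1 were 17 and 153. Of these 153, however, 117 averaged less than 1 CPM, and 60 were protein coding. The 2 groups did not overlap for 3387 tested genes (23.7%). Without the 4 libraries with photoreceptor transcripts, 2961 genes passed, of which 2546 were also called with all 9 libraries. CPM values are shares of a library's RNA, so that fewer cells of a type or cycle stage and less RNA per cell cannot be told apart.

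**Figure D1:**
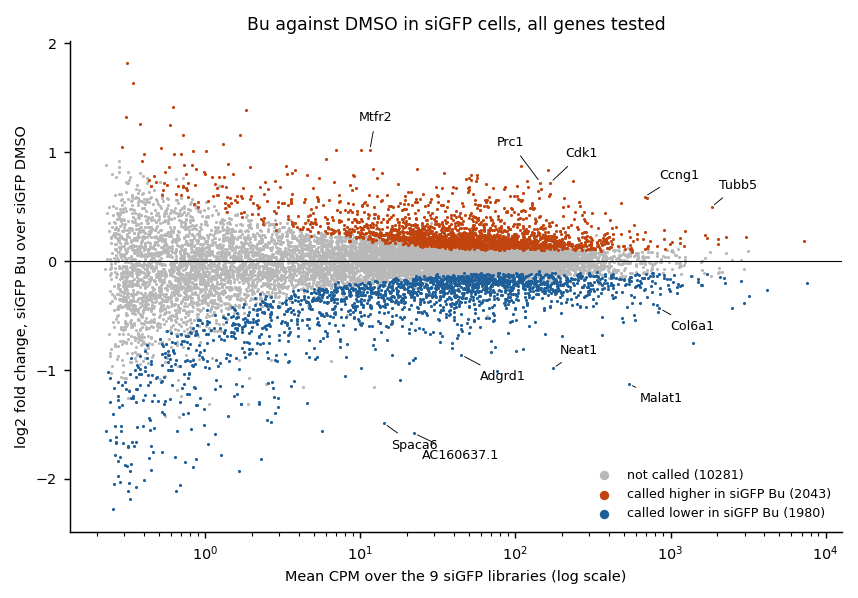
Log2 fold change of siGFP Bu over siGFP DMSO (vertical axis) against mean CPM on a log axis (horizontal axis), 1 point per tested gene, with genes called higher in orange, called lower in blue and not called in grey. The 2043 genes that rose and the 1980 that fell lie on both sides of 0, and the largest decreases sit at low CPM.

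The same contrast in siTGR5 cells shares no library with that in siGFP cells, and is set beside it below. There, 4409 of 14372 tested genes (30.7%) passed the test. A test of the difference between the 2 Bu effects (siGFP minus siTGR5) passed for 203 of 14783 genes (1.37%).

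The counts of this and every list below are to be read against all tested genes, of which 14.3% rose and 13.8% fell. The lists of mitotic genes had the highest shares of members that rose. Of 30 tested genes for mitotic kinases, cyclins and the CDK1 switch, 26 rose and none fell, with a median log2 fold change of 0.50, and of 47 tested genes for the kinetochore, the centromere and the spindle checkpoint, 40 rose and none fell, with a median of 0.47; over all tested genes, 14.3% rose and the median was 0.0031. Without the 4 libraries with photoreceptor transcripts, 25 of the first list and 38 of the second rose, and none of the first and 1 of the second fell. Over all 9 libraries, no member of either list fell at an unadjusted p below 0.05, or with DESeq2. Cdk1, the kinase that drives entry into mitosis, had 204, 217, 211 and 228 CPM in siGFP Bu, against 128, 130.4, 127, 128 and 139 CPM in siGFP DMSO. Prc1, a microtubule bundler of the cytokinesis midzone, had 186, 174, 185 and 197 CPM in siGFP Bu, against 115, 113, 108, 112 and 114 CPM in siGFP DMSO. Ube2c, the ubiquitin-conjugating enzyme of the anaphase-promoting complex, had 132, 152, 152 and 144 CPM in siGFP Bu, against 81.3, 77.9, 88.4, 76.2 and 71.3 CPM in siGFP DMSO. For these 3 genes every siGFP Bu library lay above every siGFP DMSO library, with a wide gap between the groups. The log2 fold changes were 0.72 ± 0.04 (SE) for Cdk1 (adjusted p = 5.82e-08), 0.72 ± 0.04 for Prc1 (adjusted p = 5.69e-08) and 0.88 ± 0.06 for Ube2c (adjusted p = 1.51e-07, edgeR). An exact two-sided permutation test over the 9 libraries gave p = 0.00794 for each of Cdk1, Prc1 and Ube2c, the smallest value it can give, and likewise for every gene below whose groups are said to be fully separate and whose fold change is printed with an SE. These genes were chosen from the same 9 libraries, and full separation places this p at or near its smallest value. It therefore adds no support beyond the separation, which 23.7% of all tested genes shared.

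Within the kinetochore and chromosome genes, Ndc80, which couples kinetochores to microtubules, had 66.2, 63.6, 66.3 and 71.0 CPM in siGFP Bu, against 39.3, 40.3, 38.7, 39.8 and 41.4 CPM in siGFP DMSO. Cdca5, the sororin that stabilizes cohesin on chromosomes, had 70.4, 74.0, 72.4 and 76.4 CPM in siGFP Bu, against 42.5, 43.1, 44.4, 42.6 and 43.9 CPM in siGFP DMSO. Both genes varied little within a group, and their groups did not overlap. Smaller increases were seen for Aurkb and Incenp, the kinase and scaffold of the chromosomal passenger complex (log2 fold changes 0.67 and 0.49), for the centrosomal kinase Nek2 (0.67), for the spindle protein Dlgap5 (0.71), for Oip5, which helps load the centromeric histone (0.61), and for the condensin subunit Ncaph (0.48). Foxm1 and Mybl2, activators of many mitotic genes and picked after their values were seen, rose by 0.38 and 0.40. Of 37 tested genes for cohesin, condensin and anaphase, 20 rose and 1 fell, the cohesin loader gene Mau2 (log2 fold change -0.18), and 21 rose and 2 fell without those 4 libraries. The motors were divided. Of 36 tested kinesins, 14 rose, among them Kif20a, a motor of cytokinesis (0.58), and 6 fell, among them Kifc3, which acts at epithelial junctions (-0.46), and 16 rose and 4 fell without those libraries.

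Among the genes for microtubules, more rose than fell. Of 34 tested genes for tubulins and microtubule-associated proteins, 20 rose and 6 fell, with a median of 0.25, and 17 rose and 3 fell without the libraries with photoreceptor transcripts. Tubb5, the most abundant beta-tubulin of dividing cells, had 2168, 2182, 2233 and 2192 CPM in siGFP Bu, against 1564, 1591, 1559, 1566 and 1495 CPM in siGFP DMSO. The 2 groups lay far apart relative to their spread (log2 fold change 0.50 ± 0.03, adjusted p = 1.3e-07 with edgeR). Tubb2b and Tubb4b rose by 0.65 and 0.68, while Tacc1, a centrosomal coiled-coil protein, fell by 0.37. Tubulin genes are close in sequence, and how reads shared between them were assigned affects each one.

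Promoters of genes that act in mitosis often carry the CHR, a short element bound by the DREAM and FOXM1-MYBL2 complexes, and CCAAT boxes bound by NF-Y. The RefSeq promoter windows (mouse build GRCm38.p6, 250 bases before to 50 bases after the start) of 4 of the genes described above are printed here because these letters lie close to the start site. Capitals mark TTTGAA (or TTCAAA on the other strand) and CCAAT (or ATTGG on the other strand). The windows are chr17:71526808-71527107 on the minus strand for Ndc80, chr19:6084847-6085146 on the plus strand for Cdca5, chr7:80294201-80294500 on the plus strand for Prc1 and chr10:69352863-69353162 on the minus strand for Cdk1.
Ndc80: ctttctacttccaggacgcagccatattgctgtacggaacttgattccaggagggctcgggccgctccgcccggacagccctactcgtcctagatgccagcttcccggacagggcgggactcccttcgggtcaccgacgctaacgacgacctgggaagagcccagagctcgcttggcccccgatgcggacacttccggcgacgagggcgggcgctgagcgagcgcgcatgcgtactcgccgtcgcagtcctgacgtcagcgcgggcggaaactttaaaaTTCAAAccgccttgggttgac
Cdca5: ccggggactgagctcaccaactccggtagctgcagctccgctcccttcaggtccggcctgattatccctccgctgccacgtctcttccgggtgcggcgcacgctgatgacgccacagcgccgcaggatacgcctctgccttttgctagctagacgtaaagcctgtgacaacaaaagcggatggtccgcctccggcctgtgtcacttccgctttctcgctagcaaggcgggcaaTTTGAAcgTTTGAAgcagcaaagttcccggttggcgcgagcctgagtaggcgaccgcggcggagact
Prc1: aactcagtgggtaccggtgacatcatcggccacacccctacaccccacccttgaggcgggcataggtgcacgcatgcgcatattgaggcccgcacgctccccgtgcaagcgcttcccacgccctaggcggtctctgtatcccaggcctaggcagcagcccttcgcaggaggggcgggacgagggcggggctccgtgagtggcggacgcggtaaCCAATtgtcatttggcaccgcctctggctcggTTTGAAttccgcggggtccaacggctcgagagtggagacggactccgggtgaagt
Cdk1: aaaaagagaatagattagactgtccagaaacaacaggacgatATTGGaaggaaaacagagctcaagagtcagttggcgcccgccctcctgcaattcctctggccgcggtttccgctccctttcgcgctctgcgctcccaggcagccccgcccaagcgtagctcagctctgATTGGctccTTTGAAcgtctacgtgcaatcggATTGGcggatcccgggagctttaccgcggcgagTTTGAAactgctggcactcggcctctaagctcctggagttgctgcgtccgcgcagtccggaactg

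Cdk1 held 2 matches to the CHR letters and 3 to CCAAT, Cdca5 held 2 and none, Prc1 held 1 of each, and Ndc80 held 1 and none. The match in Ndc80 lay after the start, at bases 30 to 35. Among mitotic genes named above whose windows are not printed, Oip5 and Ube2c held both motifs. Nek2 held 2 matches to CCAAT and none to the CHR letters, and Ncaph held neither motif. Both strands were searched, and the letters of the motifs can overlap at their ends. TTTGAA was found in 18.1% and CCAAT in 37.9% of all 27025 promoter windows of the RefSeq table. Among the 10277 tested genes with a window the shares were 11.7% and 39.3%. TTTGAA stood in the windows of 18.0% of the genes that rose, 8.33% of those that fell and 10.9% of those that were not called, and in 31.7% of those that rose by more than 0.5. CCAAT stood in 43.6% of the genes that rose, 36.6% of those that fell and 38.9% of those not called. Of the mitotic kinase and cyclin genes that rose, 19 had a window, and 9 of them held TTTGAA and 14 held CCAAT; of the kinetochore genes that rose, 35 had a window, and 14 held TTTGAA and 21 held CCAAT. Of all tested mitotic kinase and cyclin genes, 21 had a window, and 9 of them held TTTGAA and 16 held CCAAT. Of all tested kinetochore genes, 42 had a window, and 16 held TTTGAA and 25 held CCAAT. Both motifs were thus about as common in each whole list as among its members that rose. These matches are a description of the letters, and no binding was measured.

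DNA replication and repair genes rose along with mitotic ones. Of 53 tested genes for replication origins, forks and nucleotide supply, 34 rose and 1 fell, with a median log2 fold change of 0.20, and without the 4 libraries with photoreceptor transcripts 33 rose and 1 fell. Mcm10, which activates the replicative helicase, had 63.8, 60.7, 62.2 and 64.5 CPM in siGFP Bu, against 40.8, 39.8, 39.4, 39.6 and 39.9 CPM in siGFP DMSO. The groups were separate, with little spread in either. Rrm2, a subunit of ribonucleotide reductase, rose by 0.46 and Gmnn, the inhibitor of origin licensing, by 0.42, while Cdc7, the kinase that fires origins, fell by 0.31 with overlapping groups. Of 42 tested genes for crosslink repair and homologous recombination, 25 rose and none fell, also at an unadjusted p below 0.05 or with DESeq2, with a median of 0.20. Without the 4 libraries with photoreceptor transcripts, 22 rose and 1 fell. Eme1, part of a nuclease that cuts branched DNA at crosslinks, had 24.7, 27.5, 26.6 and 26.7 CPM in siGFP Bu, against 17.2, 17.2, 17.7, 15.9 and 17.1 CPM in siGFP DMSO. The groups did not overlap (log2 fold change 0.63 ± 0.05, adjusted p = 6.82e-07 with edgeR). The nuclease Exo1 rose by 0.54.

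In the other repair and checkpoint lists a smaller share of the members was called. It was 26.3% for base, nucleotide and mismatch repair, 36.8% for the checkpoint genes and 32.1% for the G1 and E2F genes. Over all tested genes 28.1% were called. Of 38 tested genes for base, nucleotide and mismatch repair, 6 rose and 4 fell, with Neil3, a glycosylase that can unhook crosslinks, at 0.48 and the uracil glycosylase gene Ung at -0.43, and 5 rose and 2 fell without the libraries with photoreceptor transcripts. Of 19 tested checkpoint genes, 5 rose, among them the kinase gene Chek2 (0.40), and 2 fell, among them Trp53bp1, a protein of broken ends (-0.23), whose call was lost without those libraries, where 5 members rose and none fell. Of 28 tested G1 and E2F genes, 8 rose and 1 fell, Cdkn1b, an inhibitor of cyclin-dependent kinases (-0.15). The call of Cdkn1b was lost in 4 of the alternatives run, among them the one without the libraries with photoreceptor transcripts (adjusted p = 0.110, edgeR), where 6 members rose and 2 fell. Of 55 replication-dependent histone genes, only 5 passed the filter, and none of these 5 was called by edgeR or DESeq2, with 1 at an unadjusted p below 0.05, in poly(A)-selected libraries.

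Genes under p53 rose as a group. Of 43 tested genes for p53, its regulators and direct targets, 33 rose and 2 fell, with a median log2 fold change of 0.31, against 14.3% of all tested genes that rose. Without the 4 libraries with photoreceptor transcripts, 27 rose and 1 fell. Ccng1 (chr11:40748552-40755311 of mm10, as for all gene positions below), a cyclin G that recruits a phosphatase to MDM2, had 905, 794, 823 and 821 CPM in siGFP Bu, against 574, 584, 485, 573 and 559 CPM in siGFP DMSO. Cdkn1a, the p21 inhibitor of cyclin-dependent kinases, had 599.6, 609, 585 and 503 CPM in siGFP Bu, against 404, 449.9, 388, 409 and 339.7 CPM in siGFP DMSO. Mdm2, the ubiquitin ligase that restrains p53, had 242, 241, 249.1 and 241 CPM in siGFP Bu, against 174, 183, 161, 172 and 170.3 CPM in siGFP DMSO. All siGFP Bu libraries stood above all siGFP DMSO libraries for each of these genes, and the lowest siGFP Bu value of Cdkn1a, in replicate 4, was still above the highest siGFP DMSO value. The log2 fold changes were 0.59 ± 0.05 (adjusted p = 2.35e-06) for Ccng1, 0.53 ± 0.07 (adjusted p = 7.16e-05) for Cdkn1a and 0.50 ± 0.04 (adjusted p = 4.68e-07, edgeR) for Mdm2. Trp53 itself averaged 166 CPM in siGFP Bu and 155 CPM in siGFP DMSO, and was not called (log2 fold change 0.09, adjusted p = 0.165 with edgeR). Mdm4, the partner of MDM2 in restraining p53, fell by 0.27 with overlapping groups.

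The apoptosis genes moved in part with this list. Pmaip1, which encodes the BH3-only protein NOXA, had 122, 121, 118 and 119.5 CPM in siGFP Bu, against 83.6, 81.6, 69.1, 79.9 and 83.7 CPM in siGFP DMSO. The 4 siGFP Bu values lay close to each other and above all siGFP DMSO values (log2 fold change 0.59 ± 0.05, adjusted p = 1.12e-06 with edgeR). Bax, the pore former of the mitochondrial outer membrane, had 79.7, 99.2, 84.8 and 90.1 CPM in siGFP Bu, against 68.8, 77.8, 77.7, 73.7 and 68.1 CPM in siGFP DMSO. The lowest siGFP Bu library lay just above the highest siGFP DMSO library, and the log2 fold change was 0.27. Bbc3, encoding PUMA, and Bid rose by 0.30 and 0.17 with overlapping groups. The calls of Bax, Bbc3 and Bid were lost without the libraries with photoreceptor transcripts. Those of Bbc3 and Bid were lost in 5 and 8 of the alternatives run, most of which left out 1 library. The lowest log2 fold change over all alternatives was 0.11 for Bax and 0.11 for Bbc3. Of 29 tested genes of the BCL2 family and caspases, 11 rose and 5 fell, with the BH3-only gene Bmf at -0.22, and without those libraries 6 rose and 3 fell.

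**Figure D2:**
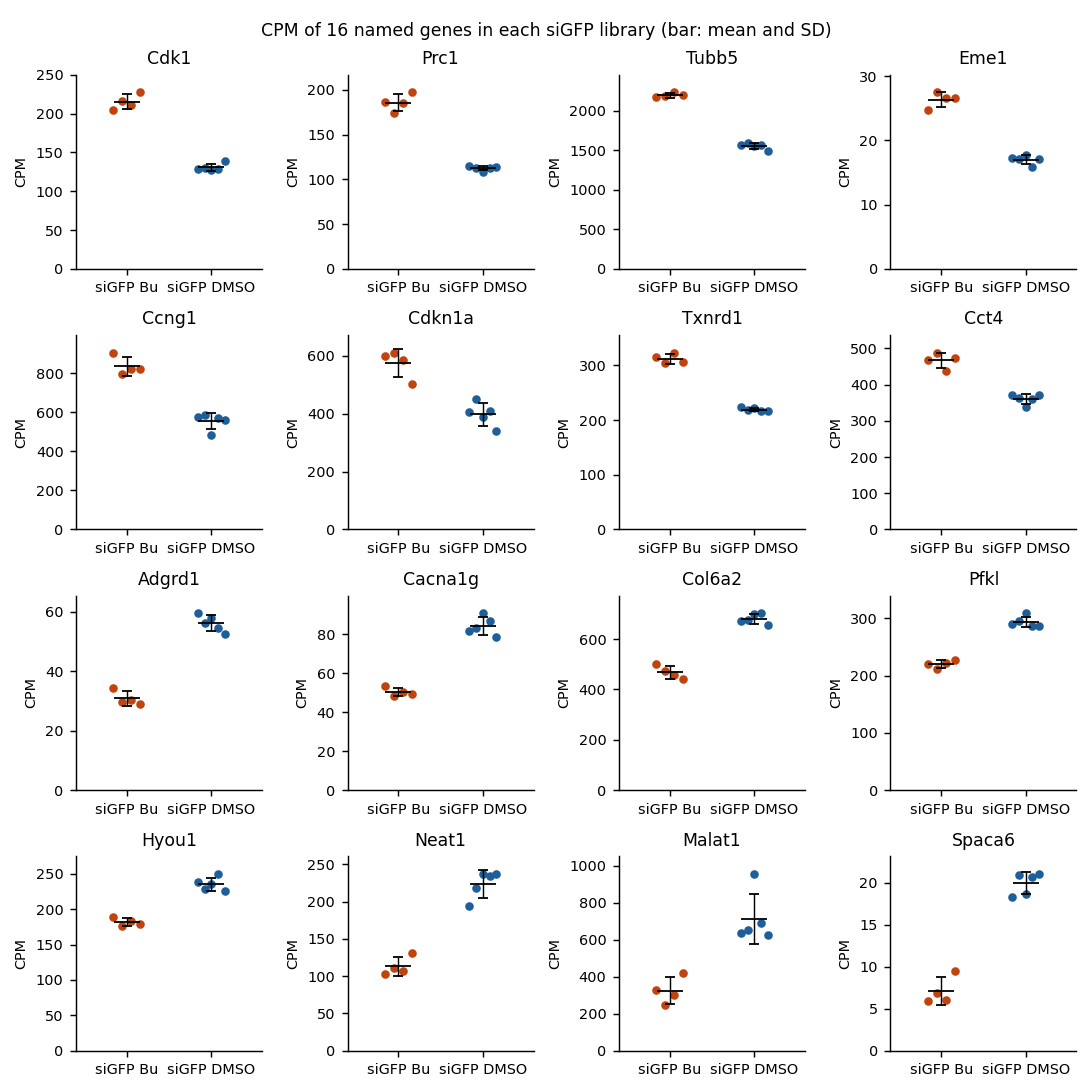
CPM of selected genes in each of the 4 siGFP Bu and 5 siGFP DMSO libraries (points), with the mean as a horizontal line and the SD as error bars, siGFP Bu at the left of siGFP DMSO in each panel, on axes that start at 0. Cdk1, Ccng1 and Txnrd1 lie higher in every siGFP Bu library than in any siGFP DMSO library, and Pfkl, Col6a2 and Adgrd1 lower.

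NRF2 target genes rose in number but mostly by small amounts. Of 47 tested genes for NRF2 targets, glutathione and redox enzymes, 24 rose and none fell, with a median of 0.13, and 22 rose without the libraries with photoreceptor transcripts. At an unadjusted p below 0.05 a single member was lower, and none with DESeq2. Txnrd1, the thioredoxin reductase of the cytosol, had 315, 305, 323 and 306 CPM in siGFP Bu, against 223, 218, 223, 216 and 217 CPM in siGFP DMSO. The lowest siGFP Bu library was well above the highest siGFP DMSO library (log2 fold change 0.51 ± 0.03, adjusted p = 1.51e-07 with edgeR). Nqo1, a quinone reductase, and Gclc, the catalytic subunit for glutathione synthesis, rose by 0.57 and 0.50, and Mt2, a metallothionein, rose by 1.02 with 14.9, 19.2, 14.04 and 8.24 CPM in siGFP Bu, against 8.20, 5.70, 7.96, 6.28 and 6.47 CPM in siGFP DMSO. For Mt2 the siGFP Bu replicate 4 barely exceeded the highest siGFP DMSO library. Sod2, the manganese superoxide dismutase, averaged 48.4 CPM in siGFP Bu and 47.4 CPM in siGFP DMSO and was not called (log2 fold change 0.03).

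Genes that make, fold and degrade proteins in the cytosol also rose. Of 37 tested proteasome subunits, 25 rose and none fell, also at an unadjusted p below 0.05 or with DESeq2, with a median of 0.16; 14 rose without the libraries with photoreceptor transcripts. Psma2, Psmc1 and Psma4 rose by 0.28, 0.23 and 0.23. Of 27 tested genes for cytosolic heat shock proteins and the CCT chaperonin, which folds tubulin and actin, 15 rose and 1 fell, the co-chaperone gene Bag3 (-0.17, overlapping groups), whose call was lost in 3 of the alternatives that leave out 1 library (adjusted p up to 0.0783, edgeR). Cct4, a CCT subunit, had 468, 488, 439 and 475 CPM in siGFP Bu, against 371, 363, 338, 359.7 and 370.1 CPM in siGFP DMSO. The groups did not overlap (log2 fold change 0.38 ± 0.04, adjusted p = 1.22e-05 with edgeR). Its partners Cct2 and Tcp1 rose by 0.24 and 0.22. Of 77 tested cytosolic ribosomal protein genes, 33 rose and 5 fell, with a median of 0.21, and 26 rose and 8 fell without the libraries with photoreceptor transcripts. Rps20 had 115, 136, 124 and 119 CPM in siGFP Bu, against 91.8, 93.9, 96.5, 93.0 and 93.7 CPM in siGFP DMSO. The siGFP DMSO libraries varied little and all lay below siGFP Bu. Rps3 and Rps27l rose by 0.33 and 0.39. Rpl10, in contrast, fell by 0.73, in a row of 4.43 to 7.20 CPM in siGFP Bu and 8.57 to 10.2 CPM in siGFP DMSO. Such low values of a ribosomal protein gene, like the 3.94 to 6.49 CPM of Gapdh (picked after its values were seen) in siGFP Bu and 9.10 to 12.1 CPM in siGFP DMSO, are uncertain, since only uniquely mapped reads were counted and these genes have near-identical pseudogene copies.

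Genes of the mitochondrial respiratory chain, which are encoded in the nucleus and in the mitochondrial genome, were tested as separate lists. Of 76 tested nuclear-encoded respiratory chain genes, 17 rose and 1 fell, against 14.3% and 13.8% of all tested genes, and 5 rose and 1 fell without the libraries with photoreceptor transcripts. Cox7a2l, which joins respiratory complexes, rose by 0.35, Cox4i1, a cytochrome oxidase subunit, by 0.23 and Atp5c1, an ATP synthase subunit, by 0.20, while Atp5l, another ATP synthase subunit whose row held only 0.919 CPM in siGFP Bu and 1.71 CPM in siGFP DMSO on average, fell by 0.89. Of 7 tested protein-coding genes of the mitochondrial genome in the list, 3 rose and 1 fell. mt-Nd1, a complex I subunit, rose by 0.22, and mt-Nd6, the complex I subunit on the opposite mitochondrial strand, had 86.3, 72.7, 62.6 and 93.1 CPM in siGFP Bu, against 128, 86.9, 151, 159 and 161 CPM in siGFP DMSO. The groups of mt-Nd6 overlapped through siGFP DMSO replicate 2 (log2 fold change -0.80), and the log2 fold change in siTGR5 cells had the opposite sign (1.78). Whether counting used the strand is not given in the sources used here, so that reads of mt-Nd6 and of transcripts on the opposite strand cannot be told apart.

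**Figure D3:**
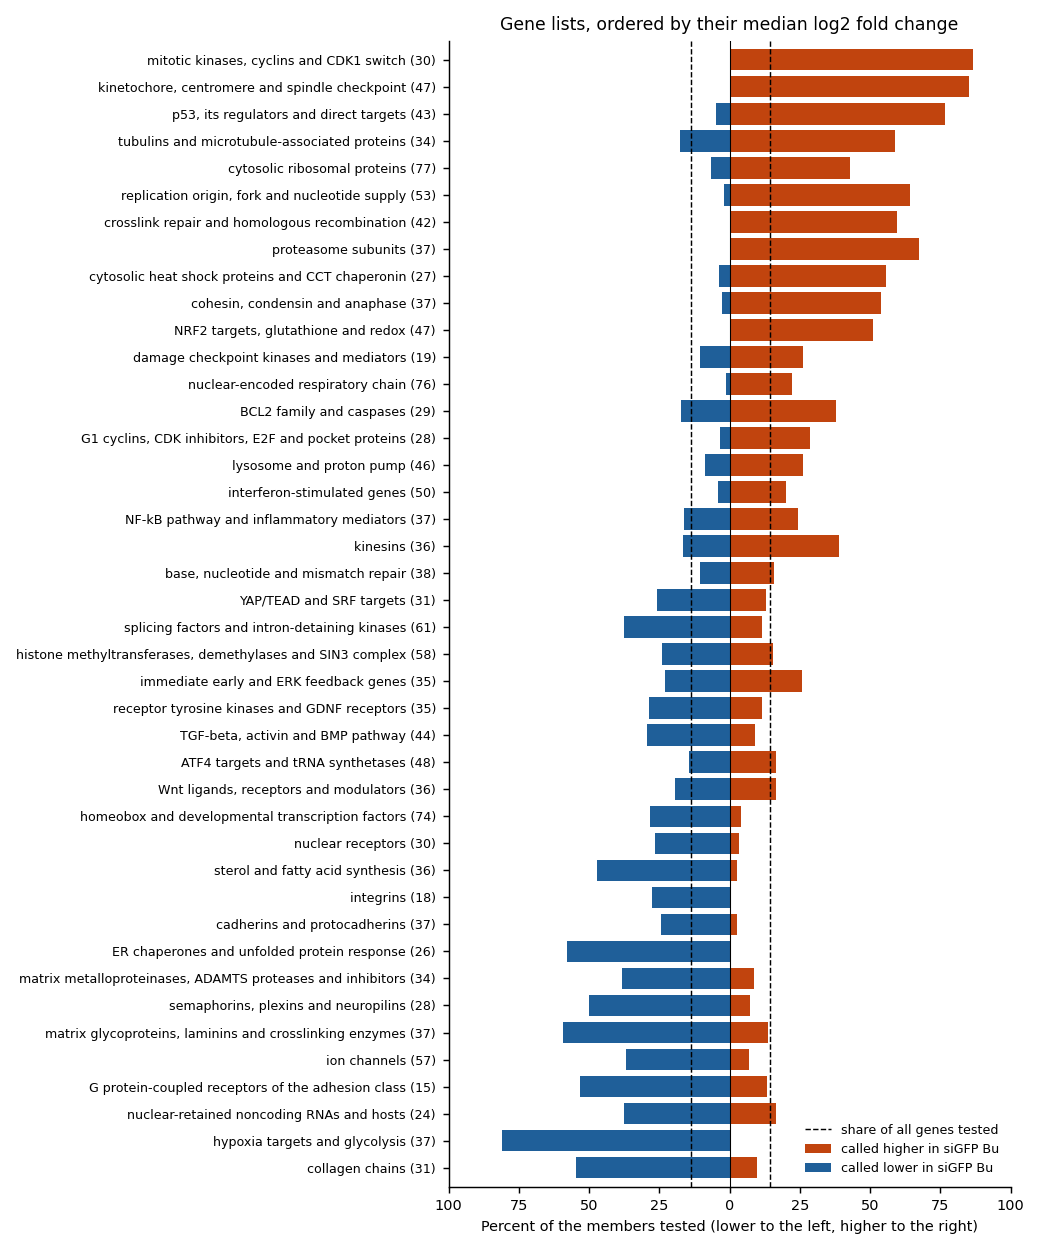
Percentage of the tested members of gene lists that were called higher (orange, to the right) or lower (blue, to the left) in siGFP Bu. Lists with 15 or more tested members are shown, and cell type marker lists are left out. The number tested is in brackets, and dashed lines mark the shares over all tested genes (14.3% rose, 13.8% fell). Mitotic kinase, kinetochore and p53 lists lie far above the background for genes that rose, and hypoxia, ER chaperone and collagen lists above it for genes that fell.

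Of all the lists, that of hypoxia targets and glycolytic enzymes had the highest share of members that fell. Of 37 tested members, 30 fell and none rose, also at an unadjusted p below 0.05 or with DESeq2, with a median log2 fold change of -0.24, against 13.8% of all tested genes that fell, and 25 fell without the libraries with photoreceptor transcripts. Pfkl (chr10:77986947-78010083), the liver-type phosphofructokinase of glycolysis, had 219.8, 211, 222 and 228 CPM in siGFP Bu, against 291, 296, 309, 287 and 287 CPM in siGFP DMSO. P4ha2, a collagen prolyl hydroxylase induced by hypoxia, had 215, 213, 211 and 237 CPM in siGFP Bu, against 298, 287, 308, 278 and 294 CPM in siGFP DMSO. Neither gene overlapped between the groups, and the log2 fold changes were -0.41 ± 0.04 (adjusted p = 2.3e-06) for Pfkl and -0.42 ± 0.04 (adjusted p = 7.29e-06, edgeR) for P4ha2. Aldoc, an aldolase, fell by 0.33. Of the other members, picked after their values were seen, the vascular growth factor gene Vegfa had 87.1, 90.4, 90.5 and 105 CPM in siGFP Bu, against 127, 134, 148, 121 and 133 CPM in siGFP DMSO (log2 fold change -0.51), and the glucose and lactate transporter genes Slc2a1 and Slc16a3 fell by 0.35 and 0.38. Vegfa, too, showed no overlap.

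The siTGR5 cells differed here. The median log2 fold change of the same list was -0.04 in siTGR5 cells, where 8 of the 30 genes that fell in siGFP cells also fell, and the test of the difference between the Bu effects passed for 10 of the 37 members, against 1.37% of all genes. For Pfkl the siTGR5 log2 fold change was -0.01, a difference of -0.40 ± 0.06 (siGFP minus siTGR5, SE; adjusted p = 0.00227, edgeR), and for P4ha2 it was -0.05, a difference of -0.37 ± 0.06 (adjusted p = 0.00227). For Vegfa the difference was -0.43 ± 0.08 (adjusted p = 0.0102, edgeR). All 3 differences passed in each of the 24 alternatives run, the highest adjusted p being 0.0208 for Pfkl, 0.0175 for P4ha2 and 0.0361 for Vegfa. The number of members that passed was 8 without the libraries with photoreceptor transcripts and lay between 5 and 14 with any 1 library left out, the lowest without siTGR5 Bu replicate 2, 3 or 4.

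Collagens and other matrix genes fell more often than they rose. Of 31 tested collagen chain genes, 17 fell and 3 rose, with a median of -0.31, and 13 fell and 1 rose without the libraries with photoreceptor transcripts. Col6a2 (chr10:76595762-76623630), a chain of the beaded filament collagen, had 499.98, 473, 459 and 440.5 CPM in siGFP Bu, against 670.4, 676, 701, 702 and 656 CPM in siGFP DMSO. The groups lay far apart (log2 fold change -0.54 ± 0.04, adjusted p = 4.31e-07 with edgeR). Its partner chain Col6a1 fell by 0.43, and the scarce Col20a1 fell as well, with 2.28 CPM in siGFP Bu, against 4.92 CPM in siGFP DMSO on average. Col14a1, a fibril-associated collagen, went the other way, with 5.09, 4.03, 4.30 and 4.34 CPM in siGFP Bu, against 2.05, 3.02, 2.17, 2.57 and 2.45 CPM in siGFP DMSO, and its groups did not overlap (log2 fold change 0.87). Of 37 tested matrix glycoproteins, laminins and crosslinking enzymes, 22 fell and 5 rose, and 15 fell and 4 rose without those libraries. The basement membrane genes Nid2 and Lama5 fell by 0.54 and 0.39, the elastic fibre gene Fbln5 by 0.42, and the proteoglycan gene Vcan rose by 0.56. Of 34 tested matrix metalloproteinase and ADAMTS genes, 13 fell, among them Adamts2, which trims procollagen (-0.60), and 3 rose, with Mmp15 at 0.52, whereas 10 fell and 1 rose without those libraries. The test of the difference between siGFP and siTGR5 cells passed for 6 of the 31 collagen genes, and for Col6a2 it gave -0.34 ± 0.06 (adjusted p = 0.00987, edgeR). Without the libraries with photoreceptor transcripts these 6 calls were lost, and the value of Col6a2 was -0.27 (adjusted p = 0.188).

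Genes of the secretory pathway and of lipid synthesis were also lower. Of 26 tested genes for ER chaperones and the unfolded protein response, 15 fell and none rose, also at an unadjusted p below 0.05 or with DESeq2, with a median of -0.15, and 11 fell without the libraries with photoreceptor transcripts. Hyou1, an ER chaperone of the HSP70 family, had 188, 176, 183 and 179 CPM in siGFP Bu, against 238, 229, 235, 249.5 and 226 CPM in siGFP DMSO. Ern1, the ER stress sensor IRE1, had 104, 93.4, 103 and 108 CPM in siGFP Bu, against 134, 132, 134, 135 and 133 CPM in siGFP DMSO. Both were lower in all siGFP Bu libraries, by 0.37 and 0.39 on the log2 scale, and the disulfide isomerase gene Pdia4 fell by 0.38. Of 48 tested genes of the ATF4 amino acid response and tRNA synthetases, 8 rose, among them Qars (0.24), and 7 fell, among them Vldlr (-0.29), whereas 4 rose and 10 fell without those libraries. Of 36 tested sterol and fatty acid synthesis genes, 17 fell and 1 rose, with a median of -0.12, and 11 fell without the libraries with photoreceptor transcripts. Scd1, the stearoyl-CoA desaturase, had 2223, 1769, 2067 and 2237 CPM in siGFP Bu, against 2848, 2869.6, 2679, 2798 and 2809 CPM in siGFP DMSO. The siGFP Bu replicate 2 was the lowest, and all 4 lay below siGFP DMSO (log2 fold change -0.43). The sterol sensor gene Insig1 and the lanosterol synthase gene Lss fell by 0.46 and 0.33, and Abca1, which exports cholesterol, rose by 0.57.

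In the lists of receptors, channels and guidance molecules of the cell surface, more members fell than rose. Of the cadherins and of the integrins, however, only 27.0% and 27.8% were called, near the 28.1% over all tested genes. Of 15 tested adhesion G protein-coupled receptors, 8 fell and 2 rose. Adgrd1 (chr5:129096750-129204599), a receptor of this class and one of the 5 genes that fell with the smallest p-values, had 34.3, 29.7, 30.1 and 29.0 CPM in siGFP Bu, against 59.4, 56.1, 57.9, 54.5 and 52.5 CPM in siGFP DMSO. The groups were well separated (log2 fold change -0.86 ± 0.06, adjusted p = 1.24e-07 with edgeR), and the log2 fold change in siTGR5 cells was -0.43, a difference of -0.43 ± 0.08 (adjusted p = 0.0102, edgeR), which did not pass without the libraries with photoreceptor transcripts (-0.30, adjusted p = 0.287). Adgrf4 rose by 0.47. Of 57 tested ion channel genes, 21 fell and 4 rose, with a median of -0.17, and 15 fell and 1 rose without the libraries with photoreceptor transcripts. Cacna1g, a T-type calcium channel, had 53.4, 48.5, 50.5 and 49.3 CPM in siGFP Bu, against 81.5, 83.2, 90.6, 86.6 and 78.5 CPM in siGFP DMSO. Its groups did not overlap, and the potassium channel gene Kcnq3 and the glutamate receptor gene Grik5 fell by 0.72 and 0.38, while Gria3, another glutamate receptor, rose by 0.53. Of 28 tested semaphorins, plexins and neuropilins, 14 fell, with Plxna3 at -0.98, and 2 rose, with Sema4f at 0.27. The call of Sema4f was lost without those libraries (adjusted p = 0.0724, edgeR), where 13 members fell and none rose. Of 37 tested cadherins and protocadherins, 9 fell, with Celsr2 at -0.75, and 1 rose, Cdh2, the N-cadherin (0.16, overlapping groups), whose call was lost in 5 of the alternatives that leave out 1 library (adjusted p up to 0.0701, edgeR). Without those 4 libraries 6 members fell and 2 rose. Of 18 tested integrins, 5 fell, with Itgb8 at -0.45, and none rose (1 at an unadjusted p below 0.05, none with DESeq2), whereas 5 fell and 1 rose without those libraries.

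Signalling lists gave mixed counts, to be read against the 14.3% of all tested genes that rose and the 13.8% that fell. Of 35 tested receptor tyrosine kinases and related receptors, 10 fell and 4 rose. Gfra1, the GDNF coreceptor of undifferentiated spermatogonia, had 21.1, 20.5, 20.1 and 20.4 CPM in siGFP Bu, against 29.1, 28.1, 27.8, 28.6 and 28.8 CPM in siGFP DMSO, with no overlap and little spread in each group (log2 fold change -0.47). Fgfr2, a fibroblast growth factor receptor, fell by 0.40, and Tek, an angiopoietin receptor, rose by 0.37. Of 36 tested Wnt pathway genes, 6 rose, with Wnt4 at 0.34, and 7 fell, with the receptor gene Fzd4 at -0.55, and without the libraries with photoreceptor transcripts 2 rose and 5 fell. Of 44 tested genes for TGF-beta, BMP and activin signalling, 13 fell, with the BMP antagonist gene Chrd at -0.37, and 4 rose, with the activin antagonist gene Fst at 0.51. Of 35 tested immediate early and ERK feedback genes, 9 rose, with the kinase gene Sgk1 at 0.49, and 8 fell, with Spred3 at -0.59, and 6 rose and 6 fell without those libraries. Of 31 tested YAP and SRF targets, 4 rose, with Ankrd1 at 0.67, and 8 fell (3 and 5 without those libraries), with Actg1 at -0.92, a low and uncertain row of 1.55 to 3.45 CPM in siGFP Bu and 3.75 to 4.78 CPM in siGFP DMSO. The NF-kB list had 9 of 37 tested members higher, with Cd14 at 0.70, and 6 lower, with Nod1 at -0.38. The interferon-stimulated list had 10 of 50 higher, with the class I antigen gene H2-D1 at 0.25, and 2 lower, with Ifit1 at -0.69, and without those libraries 10 higher and 3 lower. The call of Ifit1 was lost in the fit of all 18 libraries (adjusted p = 0.0569, edgeR). In each of these lists called members moved in both directions.

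Nuclear factors and lysosomal genes completed the lists. Of the nuclear receptors 30% were called, of the developmental factors 32.4%, of the histone modifiers 39.7% and of the lysosomal genes 34.8%. Over all tested genes 28.1% were called. Of 30 tested nuclear receptors, 8 fell, with the vitamin D receptor gene Vdr at -0.67, and 1 rose, Nr1h3, the oxysterol receptor LXR alpha, whose call (adjusted p = 0.0461, edgeR) was lost in 15 of the alternatives run. Without the libraries with photoreceptor transcripts 8 fell and none rose. Of 74 tested homeobox and developmental transcription factors, 21 fell, with Gli2 at -0.47, Zic1 at -0.39 and Wt1 at -0.27, and 3 rose, with Snai2 at 0.32, and 17 fell and 2 rose without those libraries. Of 58 tested genes for histone modifiers and the SIN3 complex, 14 fell, with the histone methyltransferase gene Kmt5c at -0.39, and 9 rose, with Suv39h1 at 0.31, whereas 6 fell and 6 rose without those libraries. Of 46 tested lysosomal genes, 12 rose, with the proton pump subunit Atp6v1h at 0.30, and 4 fell, with Atp6v0c at -1.11 in a row of 1.64 CPM in siGFP Bu and 3.56 CPM in siGFP DMSO. Of 5 tested creatine genes, Gatm, which makes the precursor of creatine, rose by 0.20, and the transporter gene Slc6a8 and the mitochondrial creatine kinase gene Ckmt1 fell by 0.31 and 0.62. Pcsk6, a proprotein convertase, belonged to no list and was among the 5 genes that fell with the smallest p-values (-0.55).

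Some of the largest decreases at 5 CPM or more were those of nuclear-retained and poorly annotated transcripts. Of 24 tested members of the nuclear-retained list, 9 fell and 4 rose, with a median of -0.23, and 10 fell and 2 rose without the libraries with photoreceptor transcripts. Malat1 (chr19:5795690-5802672), a nuclear speckle RNA, had 329.6, 249.9, 300.4 and 422 CPM in siGFP Bu, against 638, 653, 956, 691 and 628 CPM in siGFP DMSO. Neat1 (chr19:5824708-5845478), the RNA scaffold of paraspeckles, had 103, 111, 107 and 131 CPM in siGFP Bu, against 193, 219, 236, 234 and 237 CPM in siGFP DMSO. Both were lower in all 4 siGFP Bu libraries, of which replicate 4 was the highest (for Malat1 and Neat1 in this order, log2 fold changes -1.13 ± 0.14, adjusted p = 3.58e-05, and -0.98 ± 0.07, adjusted p = 2.93e-07, edgeR). Firre, an X-linked nuclear RNA, fell by 1.09, and Pvt1, a long noncoding RNA gene next to Myc, rose by 0.26. The largest decreases among genes at 5 CPM or more without overlap were those of AC160637.1, 3110039I08Rik and Spaca6. AC160637.1, a transcript of the TEC class, which awaits experimental proof, at chr9:59672814-59676700, had 7.58, 8.39, 7.88 and 18.4 CPM in siGFP Bu, against 32.3, 33.8, 29.1, 29.7 and 33.3 CPM in siGFP DMSO. Spaca6, a sperm protein gene at chr17:17827158-17843009, had 5.95, 6.90, 6.02 and 9.51 CPM in siGFP Bu, against 18.4, 21.0, 18.6, 20.7 and 21.0 CPM in siGFP DMSO. In both, replicate 4 was again the highest siGFP Bu library and still below siGFP DMSO. The noncoding 3110039I08Rik fell by 1.56 and Spaca6 by 1.49. Among the genes at 5 CPM or more that rose without overlap, Mtfr2, a mitochondrial fission regulator, was among the largest, with 17.3, 14.2, 15.5 and 17.0 CPM in siGFP Bu, against 8.08, 8.002, 6.57, 8.54 and 8.34 CPM in siGFP DMSO. These groups were also apart (log2 fold change 1.02), and the carboxylesterase gene Ces2e rose by 1.02 and the adhesion gene Mcam by 0.85.

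Splicing factor genes also fell more often than they rose. Of 61 tested splicing factors and kinases known for detained introns, 23 fell and 7 rose, and 22 fell and 4 rose without the libraries with photoreceptor transcripts. Arglu1 had 23.6, 28.9, 26.4 and 32.4 CPM in siGFP Bu, against 44.4, 48.3, 48.0, 48.2 and 52.6 CPM in siGFP DMSO. The groups did not overlap (log2 fold change -0.80), and Nktr and the helicase gene Ddx17 fell by 0.56 and 0.42, whereas Hnrnpc, an RNA packaging protein, rose by 0.22. By annotation class, 67 of 230 tested TEC transcripts (29.1%) fell and 1 rose, with a median of -0.27, against 1782 of 12449 protein-coding genes that fell and 1986 that rose.

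The share of genes that fell increased with the length of the gene on the chromosome. Among genes spanning under 5 kb, 10.4% rose and 8.07% fell, among those of 50 to 100 kb 12.1% rose and 14.8% fell, among those of 200 to 400 kb 4.15% rose and 33.4% fell, and among the 171 genes over 400 kb 2.34% rose and 46.8% fell, with a median log2 fold change of -0.24. The same order was seen among protein-coding genes at 5 CPM or more, from 6.25% of genes under 5 kb to 52.99% of the 117 genes over 400 kb that fell. Across 10246 such genes Spearman's rho between span and log2 fold change was -0.23 in siGFP cells and -0.23 in siTGR5 cells, as a description over genes that share their libraries. Examples, picked after their values were seen, are Slit3, a guidance ligand gene of 587 kb, with 121, 111, 124 and 112 CPM in siGFP Bu, against 188, 183, 192, 202 and 167 CPM in siGFP DMSO, and, as 1 of the 4 exceptions that rose, Nrg1, the neuregulin gene of 1069 kb, with 17.7, 15.1, 16.4 and 17.1 CPM in siGFP Bu, against 10.1, 11.3, 9.11, 9.35 and 9.31 CPM in siGFP DMSO. Neither gene overlapped, with log2 fold changes of -0.67 for Slit3 and 0.76 for Nrg1. The other 3 exceptions were Diaph3, Oxr1 and Fgf13.

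**Figure D4:**
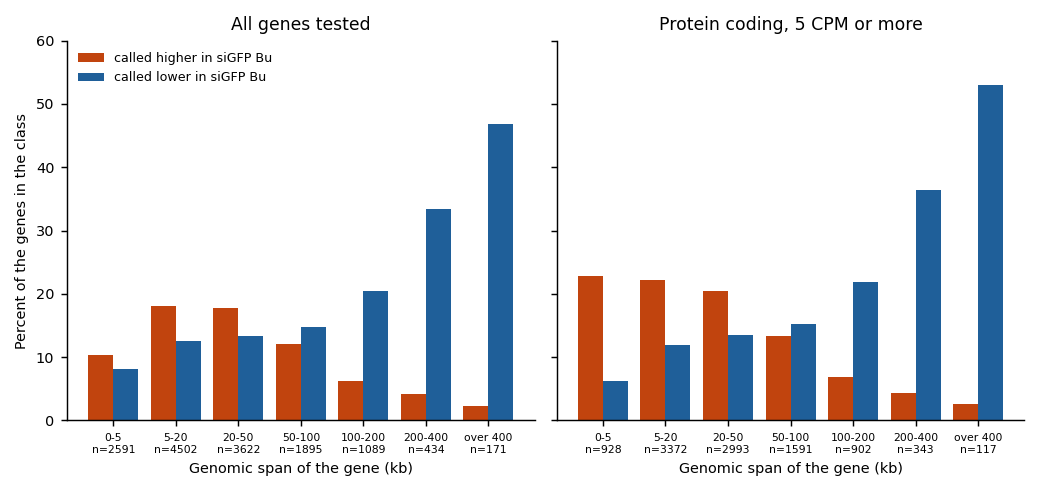
Percentage of tested genes called higher (orange) and lower (blue) in siGFP Bu (vertical axis) by class of gene span in kb (horizontal axis), for all tested genes at the left and for protein-coding genes at 5 CPM or more at the right. The share that fell increases to 46.8% of all tested genes over 400 kb, where 2.34% rose.

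Several genes that the study's text discusses were not called. The study proposes SIN3A and E2F factors as regulators of the changed genes and makes no claim about their own mRNA. For Id4 it reports no statistical effect, in sorted Thy1+ testis cells. Id4, a marker of spermatogonial stem cells, averaged 5.31 CPM in siGFP Bu and 5.24 CPM in siGFP DMSO, Sin3a, the scaffold of a deacetylase complex, 81.7 and 84.8 CPM in these groups, E2f4, a repressive E2F, 30.7 and 34.2 CPM, and E2f6, another repressor, 18.8 and 19.5 CPM. Their adjusted p-values ran from 0.0813 (E2f4) to 0.950 (Id4) in the edgeR test. Mmp24, a membrane metalloproteinase, rose by 0.36 with overlapping groups, and this call was lost without the libraries with photoreceptor transcripts. Among 16 tested spermatogonial markers 4 rose and 1 fell, and among 9 tested Sertoli cell markers none rose, also at an unadjusted p below 0.05 or with DESeq2, and 2 fell. Over all tested genes, 14.3% rose and 13.8% fell. Summed, the spermatogonial markers reached 635 to 653 CPM in siGFP Bu and 625 to 643 CPM in siGFP DMSO, and the Sertoli cell markers 238 to 250 CPM in siGFP Bu and 271 to 305 CPM in siGFP DMSO. Most of the spermatogonial sum was Cd9, Rarg and Itga6, with 197, 149 and 104 CPM on average in siGFP Bu and 178, 160 and 95.9 CPM in siGFP DMSO. The near-absent markers, such as Zbtb16 and Nanos2, added almost nothing to it. Most of the Sertoli cell sum was Wt1, with 193 CPM in siGFP Bu and 234 CPM in siGFP DMSO on average.

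Most of the changes in siGFP cells had the same sign in siTGR5 cells. Of the 4009 genes called in siGFP cells and tested in all fits, 3747 had the same sign in siTGR5 cells and 2468 were called in the same direction in both, which is 61.6% of the siGFP calls and 56.3% of the 4384 siTGR5 calls, while 19 were called in opposite directions. Across 14110 genes tested in all fits, Pearson's r of the log2 fold changes was 0.66 and Spearman's rho 0.63, as a description across genes, which are not independent replicates. The lists that rose most had close medians in both: the median log2 fold change of the mitotic kinase list was 0.50 in siGFP cells and 0.57 in siTGR5 cells, that of the kinetochore list 0.47 and 0.51, and that of the p53 list 0.31 and 0.29, and for none of the members of these 3 lists did the test of the difference pass in edgeR. At an unadjusted p below 0.05 it passed for 7, 3 and 12 of their members in this order, and with DESeq2 for 2 members of the p53 list. All 26 mitotic kinase genes that rose in siGFP cells, 39 of the 40 kinetochore genes and 30 of the 33 p53 genes also rose in siTGR5 cells. By number of members past the test of the difference, the first lists were hypoxia and glycolysis, with 10 of 37, and collagens, with 6 of 31. In the smaller list of adhesion G protein-coupled receptors it passed for 4 of 15. Txnrd1 was among 4 NRF2 list genes that passed it, with a smaller effect in siGFP cells (log2 fold changes 0.51 in siGFP and 0.71 in siTGR5 cells, difference -0.20 ± 0.05, adjusted p = 0.0467 with edgeR), a call that held in 5 of 24 alternatives. Among the genes called in siGFP cells the difference passed for 146, which is 3.64% of them. The number of all genes past this test was 47 without the libraries with photoreceptor transcripts, and lay between 87 (without siTGR5 Bu replicate 2) and 270 when any 1 library was left out.

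**Figure D5:**
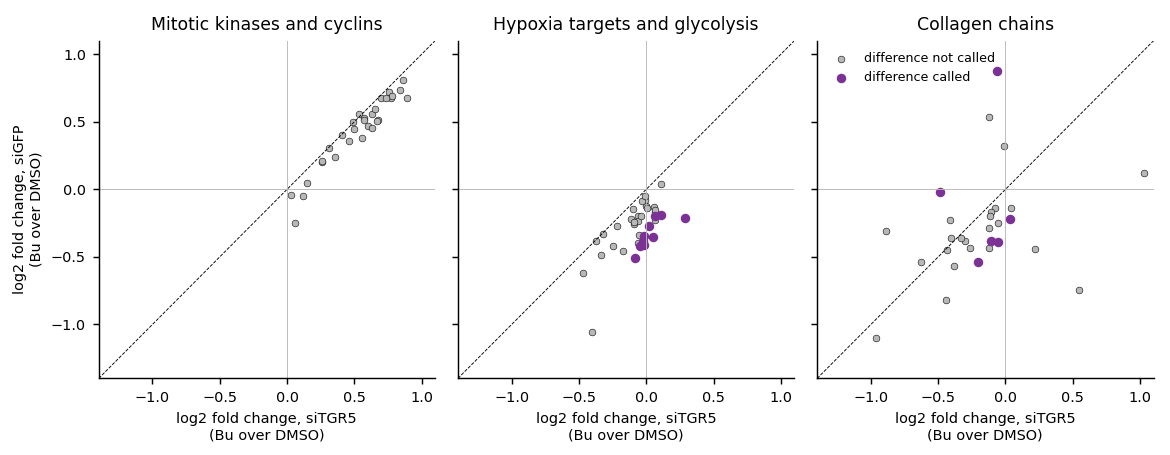
Log2 fold change of Bu over DMSO in siGFP cells (vertical axis) against that in siTGR5 cells (horizontal axis) for the members of 3 lists, with purple points where the difference passed the test (edgeR, adjusted p below 0.05) and a dashed line of equal effects. The mitotic genes lie along the line and none is purple, and 10 of the 37 hypoxia and glycolysis genes are purple and lie below it.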

How the data were processed

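RNA-seq was done on poly(A)-selected, stranded libraries of GC1spg cells. The study's methods give mRNA libraries read as single-end 50-base reads, and name neither poly(A) selection nor strand. The authors mapped reads to mm10 with Hisat2 and Bowtie2 2.1.0 (their processing notes name TopHat2), retained reads with a single alignment, and assigned them to genes of Ensembl release 77 with HTSeq; the strand setting of the counting is not given in the sources used here. The table the authors deposited holds raw counts per gene for 18 libraries, used here, and normalized values, fold changes and p-values of their own DESeq2 comparisons, not used.

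Counts were tested with edgeR 4.0.16 (R 4.3.3, TMM factors, filterByExpr with a minimum count of 10 and a minimum total of 15, quasi-likelihood F test, Benjamini-Hochberg adjustment, threshold 0.05), for siGFP Bu (n = 4) against siGFP DMSO (n = 5), the same in siTGR5 cells, and the difference of both effects in 1 fit of all 18 libraries. CPM use TMM-scaled library sizes, and the permutation test used log2(CPM + 0.5). The test was also run on simulated counts, with the same dispersion for all genes and no structure among libraries. That run does not show how the test behaves with the differences among these libraries. The alternatives run were a filter at a mean of at least 1 CPM or none at all, DESeq2 1.42.0, scaling by RLE, the replicate number as a term, all 18 libraries in 1 fit, each library left out, and no libraries with photoreceptor transcripts. Genes named are, in each direction, the 5 of smallest p and the 5 of largest fold change (mean of 5 CPM or more, groups not overlapping), the called member of each list with the smallest p in each direction (3 where 15 or more were called), and genes the study's text discusses; others are marked as picked later. All members, lists and named genes were chosen with earlier results of these data known, and some genes stand in several lists. The 4 genes whose promoters are printed were taken from the RefSeq promoter table (GRCm38.p6), in which 10277 of 14300 tested symbols had a window, and the first entry of a gene was used.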

Additional observations from a re-analysis of the deposited data

Results flagged for a closer look

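In 14 of 286 groups of libraries of the 143 named genes, 1 library lay far from the others of its group, where chance gives about 1 in 20. Among siGFP Bu libraries, replicate 4 stood apart for Wt1 (202 CPM), P4ha2 (237 CPM) and AC160637.1 (18.4 CPM), all above the rest, replicate 1 for Gria3 (24.3 CPM, above), replicate 3 for Nr1h3 (3.65 CPM, above) and Mdm2 (249.1 CPM, above), and replicate 2 for Rrm2 (119.9 CPM, below). Among siGFP DMSO libraries, replicate 3 stood apart for Rpl10 (10.2 CPM, above), Malat1 (956 CPM, above), Mtfr2 (6.57 CPM, below), Ccng1 (485 CPM, below) and Pmaip1 (69.1 CPM, below), replicate 2 for Id4 (4.61 CPM, below) and replicate 5 for Psma4 (77.3 CPM, above). Among the siGFP libraries, siGFP DMSO replicate 3 had the highest summed level of nuclear-retained RNAs, 1566 CPM, most of which was this same Malat1 value.

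For 12 named genes the test of the difference between the Bu effects in siGFP and siTGR5 cells passed (edgeR, adjusted p below 0.05; values are siGFP minus siTGR5 on the log2 scale). The difference was positive for Gria3 (0.46), Col14a1 (0.94) and Rps20 (0.28). It was negative for P4ha2 (-0.37), Pfkl (-0.40), Col6a2 (-0.34), Nid2 (-0.53), Txnrd1 (-0.20), Kifc3 (-0.28), Hyou1 (-0.27), Adgrd1 (-0.43) and mt-Nd6 (-2.58). Those of Pfkl, P4ha2, Nid2 and mt-Nd6 passed in all 24 alternatives run, including the one without the libraries with photoreceptor transcripts, in which the other 8 did not pass. The effect of Bu on mt-Nd6 had opposite signs, with a log2 fold change of -0.80 in siGFP cells and 1.78 in siTGR5 cells.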

How the results depend on the processing

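The number of genes called between siGFP Bu and siGFP DMSO was 4023, and stayed within 1.5 times that number in all alternatives: 4126 with DESeq2, 3978 with RLE size factors, 4030 without a filter, 3819 at a mean of at least 1 CPM, 4708 with all 18 libraries in 1 fit, 2961 without the libraries with photoreceptor transcripts, and 3156 to 4109 with each library left out in turn. With the replicate number as a block it was 4314, of which 3712 were also called without it. The correlations of same-numbered libraries, as deviations from their group means, were -0.03, -0.09, 0.18 and -0.15. Those of differently numbered libraries ran from -0.31 (siGFP Bu 3 with siGFP DMSO 5) to 0.35 (siGFP Bu 4 with siGFP DMSO 5). The numbers thus showed no clear pairing, and a batch shared by libraries of both groups was not tested. In siTGR5 cells the count of 4409 became 2660 without the libraries with photoreceptor transcripts and lay between 3378 and 4513 with each library left out. The count of 203 for the difference of both effects depended most on the settings, with 402 in DESeq2, 411 without a filter, 265 with the block, 47 without the libraries with photoreceptor transcripts, and 87 to 270 with each library left out, where 87 and 97 were without siTGR5 Bu replicates 2 and 4; the cause was not tested. Of 143 named genes, 134 to 142 stayed on their side of the threshold in each alternative, and no called gene changed sign, while the uncalled Id4 (-0.05 to 0.06) and Sod2 (-0.05 to 0.07) had values on both sides of 0. E2f4 was called in 5 alternatives. Depth limits the genes under 1 CPM, of which 43 rose and 192 fell among 1982.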
